A study of Rattus norvegicus with 24 samples.

Results

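The 10 genes described here make up the core loop of the circadian clock and its closest output: the period genes Per1, Per2 and Per3, the cryptochromes Cry1 and Cry2, the nuclear receptors Nr1d1 and Nr1d2, the output factor Dbp, and the activators Clock and Bmal1. They were found by gene symbol among 14201 genes on the array, and all 10 had a probe set. Where several probe sets named a gene, the one with the highest mean over the 24 arrays stood for it. In each daily turn of the loop, the proteins CLOCK and BMAL1 bind E-boxes and switch on the Per, Cry, Nr1d and Dbp genes, and the PER and CRY proteins then block them. NR1D1 and NR1D2 shut off Bmal1 at ROR elements, while DBP acts through D-boxes. In the organs of rodents the transcripts rise and fall every day, with Bmal1 running opposite to Nr1d1 and Dbp and with Cry1 peaking later than the Per genes.

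The study used male wild type Sprague-Dawley rats aged 46 to 49 days. Cyclophosphamide, a DNA-alkylating drug that is toxic to dividing blood and lymphoid cells, was given by mouth at 40 mg/kg/day for 5 days to drug rats with wood sticks and to drug rats without wood, and vehicle was given for the same time to vehicle rats with wood and to vehicle rats without wood. Each group had 3 rats, and liver and spleen of every rat were hybridised on 1 Affymetrix rat array each from 5 µg of RNA, 12 arrays per organ. The labels give no hour of necropsy for any rat, so that a difference in the hour of collection between groups and a difference in treatment cannot be told apart.

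The series as a whole set the frame for the members. All values are log2 intensities, and a blank cell on an array was left missing. Blank cells numbered 4924 to 6060 on liver arrays and 1021 to 1920 on spleen arrays. Among spleen arrays, those of rats 1001, 1003 and 1005 (all vehicle rats without wood) and 2005 (a drug rat without wood) had 1778 to 1920 blanks and the other 8 at most 1183. The liver array of rat 2003 correlated least with the other liver arrays (mean correlation 0.877, against at least 0.927 for the others). Hepatocyte markers summed to an intensity of 70788 to 83173 in livers of drug rats and 72252 to 79572 in livers of vehicle rats, while in spleens they summed to 269 to 744 in drug rats and 359 to 900 in vehicle rats.

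The promoters of Nr1d1, Per2 and Bmal1 are shown because their windows held an E-box, a D-box and a match to the ROR element consensus, respectively. The part of these letters in the drug result was not tested, and Bmal1 did not pass for the drug in either organ. Windows from 250 bases before to 50 bases after the start of a gene, taken from RefSeq on build GRCr8, were available for 9 of the 10 genes, in 11 windows. The 250 bases before the start are printed 5′ to 3′ on the strand of the gene, with motif matches in capitals.

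Nr1d1, window 2, chr10:84229455-84229704, minus strand: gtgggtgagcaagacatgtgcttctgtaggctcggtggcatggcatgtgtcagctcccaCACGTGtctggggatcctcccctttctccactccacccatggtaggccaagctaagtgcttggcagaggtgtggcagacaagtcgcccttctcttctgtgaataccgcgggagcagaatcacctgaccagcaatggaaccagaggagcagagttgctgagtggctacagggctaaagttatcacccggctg

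Per2, chr9:99496994-99497243, minus strand: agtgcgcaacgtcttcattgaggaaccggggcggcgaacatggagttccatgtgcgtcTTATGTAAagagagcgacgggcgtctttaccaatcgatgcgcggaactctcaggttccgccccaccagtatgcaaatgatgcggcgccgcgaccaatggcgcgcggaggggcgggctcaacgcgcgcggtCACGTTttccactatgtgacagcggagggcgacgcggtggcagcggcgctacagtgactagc

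Bmal1, chr1:176766078-176766327, plus strand: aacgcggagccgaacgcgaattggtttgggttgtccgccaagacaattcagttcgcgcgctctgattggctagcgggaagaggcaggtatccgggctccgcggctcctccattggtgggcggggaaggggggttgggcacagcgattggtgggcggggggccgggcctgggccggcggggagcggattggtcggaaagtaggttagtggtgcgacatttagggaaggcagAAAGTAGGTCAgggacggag

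In Nr1d1 the capitals mark an E-box, CACGTG, which begins 191 bases before the start. In Per2 they mark a D-box, TTATGTAA, beginning 192 bases before the start and an E′ box, CACGTT, beginning 62 bases before it. In Bmal1 they mark a match to the ROR element consensus, AAAGTAGGTCA, beginning 20 bases before the start, which contains the core hexamer AGGTCA. On both strands of the 33469 rat promoter windows of the same length, the E-box stood in 6.42%, the E′ box in 4.83%, the D-box in 0.893%, the core hexamer in 16.2% and the ROR element consensus in 0.356%. The other Nr1d1 window and the Cry2 window each held an E′ box, and the Nr1d2 window held a core hexamer. No match lay in the windows of Dbp, Per1, Per3 or Clock, which says only that these letters are not within these windows.

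In spleen, 6 of the 10 clock genes were higher and 1 was lower after cyclophosphamide. Per3, Dbp, Nr1d1, Nr1d2, Per2 and Clock rose, by 1.58- to 4.13-fold, and Cry1 fell 2.33-fold. Per1, Cry2 and Bmal1 did not pass the threshold, an adjusted p of 0.05 in limma with Benjamini-Hochberg adjustment over all genes of the organ. In this organ 55% of the 13614 tested genes passed, 26.9% higher and 28.1% lower, so that 7 of 10 passing is little above the background, and 6 of 10 higher compares with 26.9%. The median log2 change of the 10 members was 0.85, against −0.02 over all tested genes. All changes are the mean of the drug effects with wood and without wood, given as log2 change ± SE, with 6 drug and 6 vehicle rats. Each array holds a whole organ, so fewer cells of a type and less RNA per cell cannot be told apart.

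**Figure D1:**
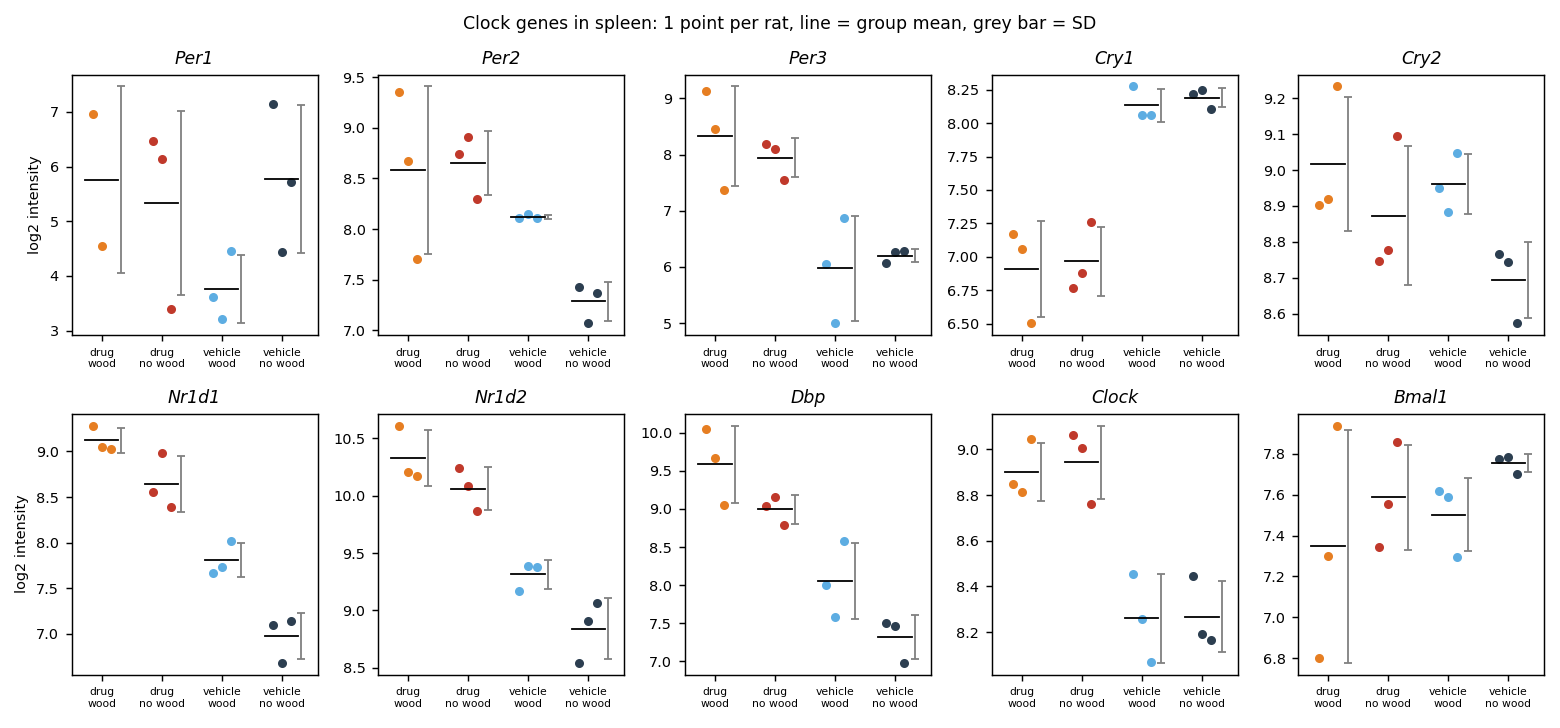
Log2 intensity of the 10 clock genes in spleen, 1 point per rat in each of the 4 groups (3 rats each, 2 for Per1 in drug rats with wood), with the group mean as a line and the SD as a grey bar. The 6 drug rats lie above the 6 vehicle rats for Per3, Dbp, Nr1d1, Nr1d2 and Clock and below them for Cry1.

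Nr1d1, the receptor that represses Bmal1, stood at log2 intensities of 9.28, 9.05 and 9.03 in spleens of drug rats with wood and 8.56, 8.99 and 8.39 in drug rats without wood. It was 7.66, 7.74 and 8.02 in vehicle rats with wood and 7.09, 6.68 and 7.14 in vehicle rats without wood. Every drug rat was above every vehicle rat, and the log2 change was 1.49 ± 0.13 (limma, adjusted p = 8.2e-06). Its partner Nr1d2, which acts at the same elements, was 10.61, 10.20 and 10.17 in drug rats with wood and 10.24, 10.08 and 9.86 in drug rats without wood. In vehicle rats it was 9.17, 9.39 and 9.38 with wood and 8.54, 8.91 and 9.06 without wood. Here too the 6 drug rats lay above the 6 vehicle rats, with a change of 1.12 ± 0.12 (adjusted p = 3.16e-05). The other 2 probe sets of Nr1d2 changed by 0.81 and 1.73, in the same direction.

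Dbp, the factor that carries the rhythm to D-box genes, stood at 10.05, 9.67 and 9.05 in drug rats with wood and 9.04, 9.16 and 8.79 in drug rats without wood. Vehicle rats had 8.01, 7.58 and 8.58 with wood and 7.50, 7.46 and 6.98 without wood. The lowest drug rat, at 8.79, was above the highest vehicle rat, at 8.58, and the change was 1.61 ± 0.21 (limma, adjusted p = 0.000128).

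The period genes, whose proteins form the inhibitory arm with the cryptochromes, differed in how firmly they were measured. Per3 was 9.14, 8.46 and 7.38 in drug rats with wood and 8.20, 8.10 and 7.55 in drug rats without wood. It was 6.06, 5.00 and 6.87 in vehicle rats with wood and 6.07, 6.26 and 6.28 in vehicle rats without wood. The groups did not overlap, and the change of 2.05 ± 0.35 (limma, adjusted p = 0.00075) had the widest interval of the members that did not overlap, from 1.26 to 2.83 at 95%. A dimmer second probe set of Per3, with 10 values in spleen, differed in direction between the housings: it averaged 4.26 in drug rats and 1.86 in vehicle rats with wood, but 3.96 in drug rats and 5.00 in vehicle rats without wood. Per2 stood at 9.36, 8.68 and 7.71 in drug rats with wood and 8.75, 8.91 and 8.30 in drug rats without wood, against 8.11, 8.15 and 8.11 in vehicle rats with wood and 7.42, 7.07 and 7.37 in vehicle rats without wood. Drug rat 4005, at 7.71, lay below the vehicle rats with wood, so the groups overlapped. Per2 passed over both housings (0.91 ± 0.24, adjusted p = 0.00882) and without wood (1.37 ± 0.34, adjusted p = 0.00877), but not with wood, where the change was 0.46 ± 0.34 (adjusted p = 0.326). Its drug effects in the 2 housings did not differ past the threshold (difference −0.91 ± 0.48, adjusted p = 0.45). With a term for the spleen arrays with many blanks, the change of Per2 was 0.74 and its adjusted p 0.0626. A dimmer second probe set of Per2 averaged 6.88 in drug rats and 6.71 in vehicle rats with wood, and 6.67 in drug rats without wood, with no value in vehicle rats without wood. Per1 was dim, ran from 3.40 to 6.97 in 5 drug rats and from 3.22 to 7.15 in 6 vehicle rats, and was blank in rat 4005; its change of 0.78 ± 0.74 did not pass (adjusted p = 0.402).

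Of the cryptochromes, the strongest repressors of CLOCK and BMAL1, one fell. Cry1 was 7.17, 7.06 and 6.50 in drug rats with wood and 6.77, 6.88 and 7.26 in drug rats without wood, against 8.27, 8.06 and 8.06 in vehicle rats with wood and 8.22, 8.25 and 8.11 in vehicle rats without wood. All drug rats were below all vehicle rats, and the vehicle rats spanned only 8.06 to 8.27. The log2 change of −1.22 ± 0.13 (limma, adjusted p = 2.9e-05) was −1.22 with wood and −1.22 without wood. Cry2 ran from 8.75 to 9.23 in drug rats and from 8.57 to 9.05 in vehicle rats, with a change of 0.12 ± 0.09 that did not pass (adjusted p = 0.284; 95% interval −0.08 to 0.32). A dimmer second probe set of Cry2 averaged 6.70 in drug rats and 5.76 in vehicle rats with wood, and 6.22 in drug rats without wood, with no value in vehicle rats without wood.

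The activators did not move alike. Clock stood at 8.85, 8.81 and 9.04 in drug rats with wood and 9.06, 9.01 and 8.76 in drug rats without wood, against 8.46, 8.26 and 8.07 in vehicle rats with wood and 8.45, 8.19 and 8.16 in vehicle rats without wood. The groups did not overlap, and the change was 0.66 ± 0.09 (limma, adjusted p = 0.000218). The other 3 probe sets of Clock changed by 0.40, 0.45 and 1.37. Bmal1, its partner, stood at 6.80, 7.30 and 7.94 in drug rats with wood and 7.35, 7.55 and 7.86 in drug rats without wood. Vehicle rats had 7.62, 7.59 and 7.30 with wood and 7.77, 7.79 and 7.70 without wood. Drug rats spread over 6.80 to 7.94, which contains all 6 vehicle rats. The change of −0.16 ± 0.17 did not pass (adjusted p = 0.46; 95% interval −0.55 to 0.23).

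Over both directions, 6 members had drug and vehicle spleens that did not overlap, 5 higher and 1 lower, where 31.2% of the genes with a value on all 12 spleen arrays did so (16.1% higher and 15.1% lower). Within a housing, 7 members passed without wood (6 higher, 1 lower), where 45.1% of all genes passed (22.7% higher, 22.4% lower), and 6 passed with wood (5 higher, 1 lower), where 38.4% passed (19.9% higher, 18.5% lower). The member that differed between these counts was Per2. On leaving out any 1 of the 12 rats, the count of members past the threshold was 7 each time.

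In liver, none of the 9 tested members passed the threshold for the drug, and all 9 overlapped between drug and vehicle rats. Of all 12683 liver genes 0.812% passed and of those with a value on all 12 arrays 2.89% did not overlap. The median change of the 9 members was −0.01, against −0.02 over all tested genes. The chosen probe set of Per3 was blank on all 12 liver arrays, so Per3 was not tested there. By unadjusted limma p, 2 members, Cry1 (0.0301) and Nr1d1 (0.0346), were under 0.05, as were 1811 of all 12683 genes tested.

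**Figure D2:**
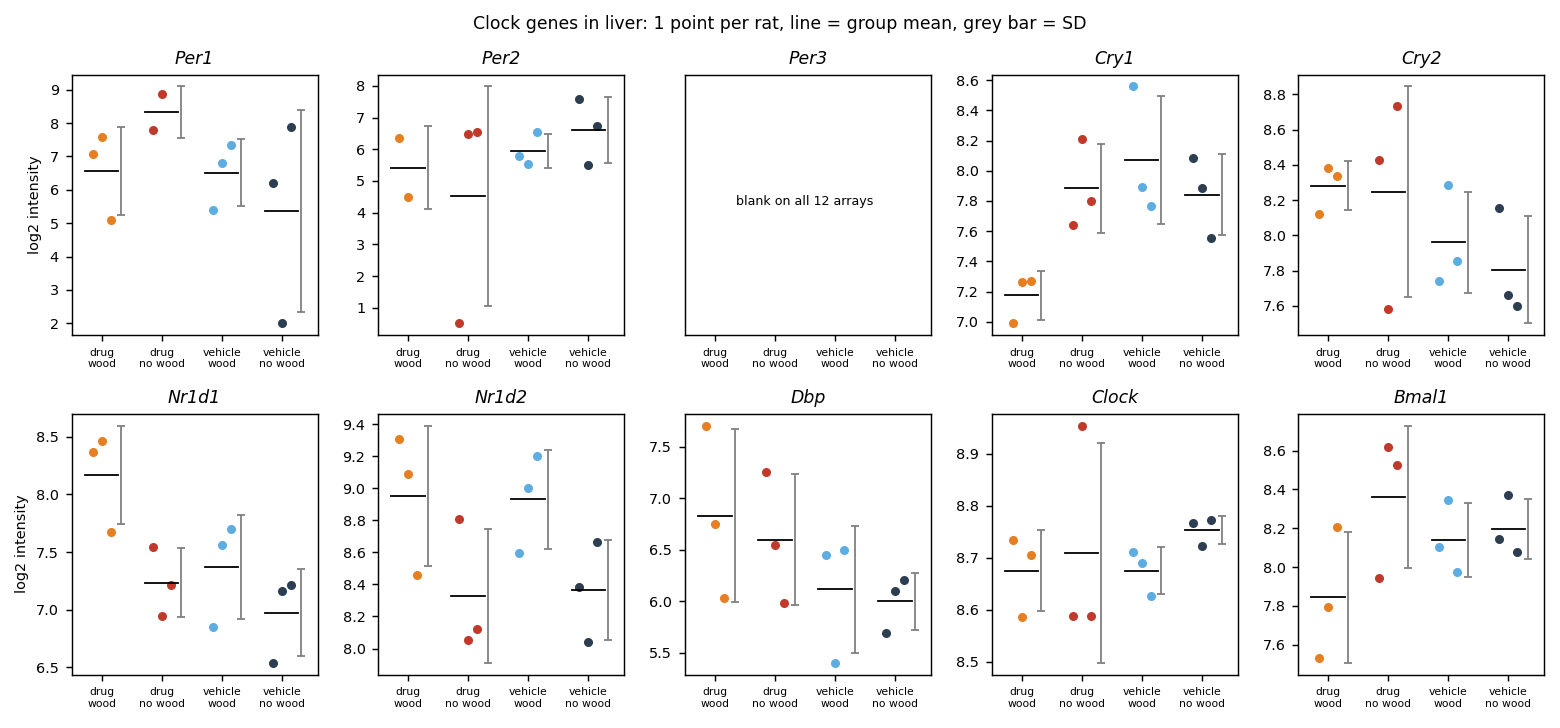
Log2 intensity of the clock genes in liver, 1 point per rat with a value in each of the 4 groups. The group mean is a line and the SD a grey bar. Per1 had no value in rat 2005, Per2 none in rat 4005, and the chosen probe set of Per3 none in any rat. Drug and vehicle rats overlap for all 9 measured genes, and the 3 drug rats with wood have the lowest Cry1 values.

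Cry1 in liver was 6.99, 7.27 and 7.27 in drug rats with wood and 7.64, 8.21 and 7.80 in drug rats without wood, against 8.56, 7.89 and 7.77 in vehicle rats with wood and 8.08, 7.89 and 7.55 in vehicle rats without wood. Only the drug rats with wood lay below the vehicle rats. The change over both housings was −0.43 ± 0.17 (limma, adjusted p = 0.297), and it was −0.90 ± 0.24 with wood (adjusted p = 0.303) and 0.04 ± 0.24 without wood (adjusted p = 0.962). The difference between the housings, −0.94 ± 0.34, did not pass (unadjusted p = 0.0194, adjusted p = 0.95).

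Nr1d1 in liver was 8.37, 8.46 and 7.68 in drug rats with wood and 7.55, 6.94 and 7.21 in drug rats without wood, against 6.85, 7.56 and 7.70 in vehicle rats with wood and 6.54, 7.17 and 7.22 in vehicle rats without wood. The 2 highest values belonged to drug rats with wood, while rat 4005 of that group, at 7.68, lay just below the highest vehicle rat. Its change was 0.53 ± 0.22 (limma, adjusted p = 0.311). Dbp ran from 5.99 to 7.70 in drug rats and from 5.40 to 6.49 in vehicle rats (0.65 ± 0.33, adjusted p = 0.416), and Cry2 from 7.58 to 8.73 in drug rats and from 7.60 to 8.28 in vehicle rats (0.38 ± 0.20, adjusted p = 0.439). The second probe set of Cry2 changed by 0.63 in liver. Nr1d2, Clock and Bmal1 were close to 0, at −0.01 ± 0.20, −0.02 ± 0.08 and −0.07 ± 0.16. The 95% interval of Clock in liver ran from −0.20 to 0.16. Its other 3 probe sets changed by −0.21, 0.24 and 0.35 in liver, and the other 2 of Nr1d2 by −0.09 and 0.13.

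Per1 and Per2 were too uneven between livers for a firm statement, although their median levels of 7.06 and 6.35 were not below the 6.33 of Dbp. Per1 had a change of 1.52 ± 1.04 and lacked a value in rat 2005. Vehicle rat 1003 was at 1.99, where the other 10 livers with a value had 5.08 or more, and without this rat the change was 0.67. Per2 stood at −1.31 ± 1.12, lacked a value in rat 4005 and was at 0.50 in rat 2001, where the other 10 livers had 4.49 or more; without rat 2001 the change was −0.31. The dim second probe set of Per3 changed by 0.19 in liver.

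**Figure D3:**
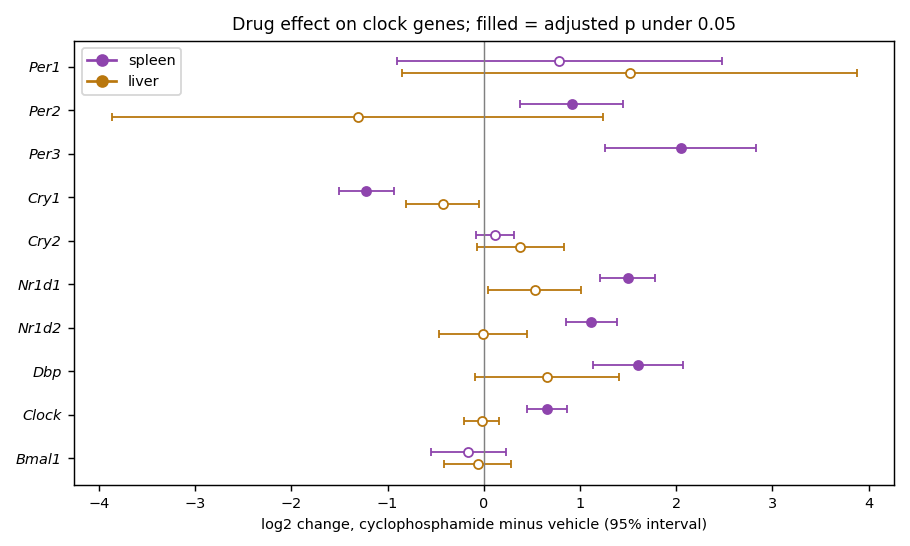
Log2 change of each clock gene, cyclophosphamide minus vehicle, in spleen (upper point) and liver (lower point) with its 95% interval; filled points passed an adjusted p of 0.05 in limma. In spleen 7 points are filled, and in liver none is, with Per3 not tested there and the widest intervals at Per1 and Per2.

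The drug effects of the 2 organs were then set against each other in 1 fit of all 24 arrays. Of 9 members, 4 differed past the threshold, 3 with a higher and 1 with a lower drug effect in spleen than in liver, where 33.1% of all 12474 genes tested differed (18.4% higher, 14.7% lower), so that this share is near the background. Nr1d2 differed by 1.13 ± 0.24 (limma, adjusted p = 0.00151), with changes of 1.12 in spleen and −0.01 in liver. Nr1d1 differed by 0.97 ± 0.26 (adjusted p = 0.00724), Clock by 0.68 ± 0.12 (adjusted p = 0.00031) and Cry1 by −0.79 ± 0.22 (adjusted p = 0.00831). Dbp, at 0.95 ± 0.41, did not pass (adjusted p = 0.0831). The rat as a replicate block makes use of both organs coming from 1 animal. Dbp passed with the rat as a fixed block (limma, adjusted p = 0.0163) but not as a random block. Per2, at 2.23 ± 1.13, did not pass (adjusted p = 0.145).

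Access to wood was compared over drug and vehicle rats together. In spleen 1 of the 10 members passed, where 12.1% of all genes did (6.05% higher). Nr1d1 was higher with wood by 0.66 ± 0.13 (limma, adjusted p = 0.0177). It averaged 9.12 ± 0.14 with wood and 8.65 ± 0.31 without wood in drug rats, and 7.81 ± 0.19 with wood and 6.97 ± 0.25 without wood in vehicle rats (SD, n = 3 each). In vehicle rats alone, where 15.1% of all genes passed (7.48% higher), the change was 0.84 ± 0.18 (adjusted p = 0.0176). In drug rats alone it was 0.48 ± 0.18 (adjusted p = 0.544), and 0% of all genes passed. The 3 vehicle rats without wood are all among the 4 rats whose spleen arrays had many blanks, and with a term for those arrays the change of Nr1d1 was 0.40 with an adjusted p of 0.604, so that wood and the set of arrays cannot be told apart in vehicle rats. Dbp (0.67 ± 0.21, adjusted p = 0.0651) and Nr1d2 (0.37 ± 0.12, adjusted p = 0.0668) had values on the same side without passing. Of the other clock-linked genes tested in spleen, 1 of 8 factors (Rora), 0 of 6 kinases, ligases and partners, and 2 of 7 rhythmic genes (Wee1 and Nampt) passed for wood, all lower, a share near the 12.1% of all genes. These 3 are named because they passed, and were not fitted with the term for arrays with many blanks.

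In liver 0 of the 9 members passed for wood by limma and 0% of all genes did. Nr1d1 (0.66 ± 0.22, adjusted p = 0.645) and Nr1d2 (0.60 ± 0.20, adjusted p = 0.679) had unadjusted limma values of 0.0121 and 0.0162. Of all 12683 genes tested, 781 had an unadjusted value under 0.05. Nr1d2 in liver averaged 8.95 ± 0.44 with wood and 8.33 ± 0.42 without wood in drug rats, and 8.93 ± 0.31 with wood and 8.36 ± 0.31 without wood in vehicle rats (SD, n = 3 each). Whether the drug effect differed between housings was tested as an interaction: 0 of 9 members passed in liver, where 0% of all genes did, and 0 of 10 in spleen, where 0.705% did. The lowest member adjusted p values were 0.95 in liver and 0.45 in spleen. By unadjusted limma p Cry1 in liver alone was under 0.05, where 650 of 12683 liver genes and 1770 of 13614 spleen genes were.

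Relations between members were described across rats that share a group. The labels give no hour of necropsy, so phase itself was not measured. The hour or order of collection within a group cannot be told apart from a relation between members. Each value was taken as its deviation from the group mean, and Pearson's r was computed over the rats with both values, with a two-sided exact permutation of rats within groups (every order was run; the smallest possible p is 0.000772 with 12 rats, 0.00231 with 11 and 0.00694 with 10, where a rat lacked a value of Per1 or Per2). Of 45 pairs in spleen and 36 in liver, 0 passed after Benjamini-Hochberg adjustment. Unadjusted, 9 and 5 pairs were under 0.05. The share under 0.05 among pairs of other genes was not computed, so these counts and the r values below are given as a description. The strongest liver relation was that of Nr1d2 with Bmal1, the repressor and its target (r = −0.85, rho = −0.85, n = 12, exact permutation p = 0.0131, adjusted p = 0.167). Without the 2 rats farthest from the median of Nr1d2 its r was −0.74. In spleen the same pair had r = −0.68 and rho = −0.69 (exact permutation p = 0.0178, adjusted p = 0.208), and r = −0.75 without the 2 farthest rats. Rat 4001 had high Nr1d2 and low Bmal1 in both organs, and rat 4005 the opposite.

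**Figure D4:**
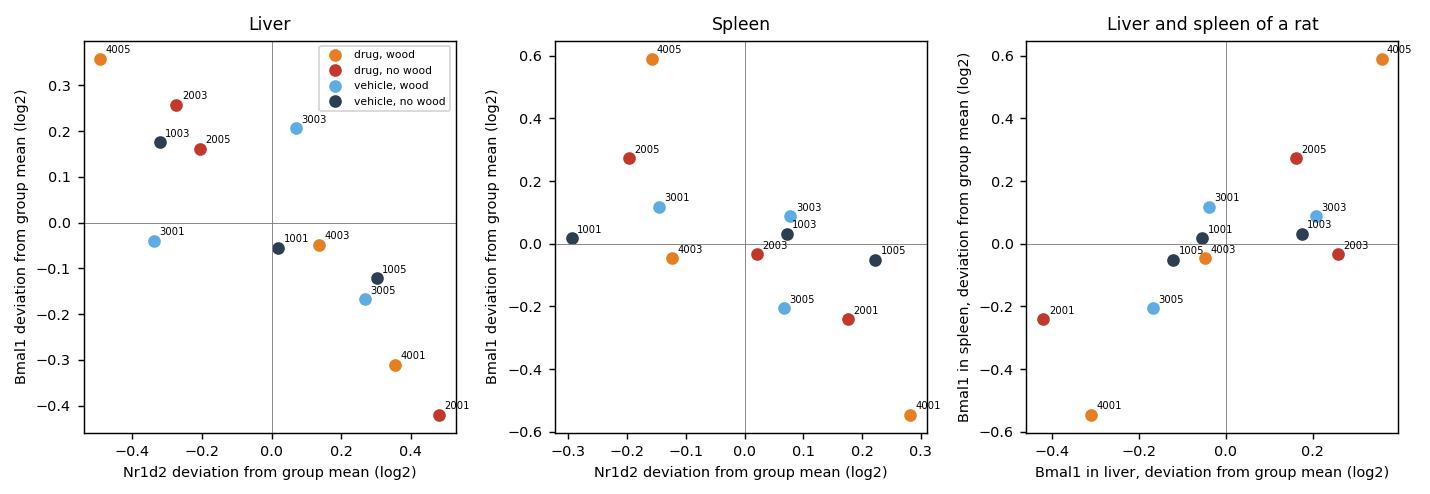
Deviation of each of the 12 rats from its group mean (log2): Bmal1 against Nr1d2 in liver and in spleen, and Bmal1 in spleen against Bmal1 in liver, with rat numbers beside the points. The first 2 panels slope down (r = −0.85 in liver and −0.68 in spleen) and the third slopes up (r = 0.80), none with an adjusted p under 0.05.

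Bmal1 also ran against Dbp, with r = −0.75 and rho = −0.62 in spleen (exact permutation p = 0.0324, adjusted p = 0.208) and r = −0.83 and rho = −0.78 in liver (exact permutation p = 0.0185, adjusted p = 0.167). With Nr1d1 its r was −0.47 in spleen (exact permutation p = 0.102, adjusted p = 0.264) and −0.49 in liver (exact permutation p = 0.155, adjusted p = 0.469). Per2 had the most negative r with Bmal1 in spleen, −0.91 (rho = −0.67, exact permutation p = 0.0594, adjusted p = 0.233), which was −0.57 without the 2 rats farthest from the median of Per2. In liver, where Per2 was at 0.50 in rat 2001, the same pair had the opposite sign, r = 0.53 (rho = 0.17, n = 11, exact permutation p = 0.403, adjusted p = 0.741). The most positive pair in spleen was Per3 with Dbp (r = 0.89, rho = 0.73, n = 12, exact permutation p = 0.0154, adjusted p = 0.208). In liver Cry1 ran against Nr1d1 (r = −0.82, rho = −0.85, exact permutation p = 0.00694, adjusted p = 0.167), while Nr1d1 and Nr1d2 ran together (r = 0.73, rho = 0.85, exact permutation p = 0.0231, adjusted p = 0.167). In spleen the r values of the same pairs were nearer 0, with r = −0.18 and rho = −0.29 for Cry1 and Nr1d1 (exact permutation p = 0.599, adjusted p = 0.674) and r = 0.31 and rho = 0.30 for Nr1d1 and Nr1d2 (exact permutation p = 0.414, adjusted p = 0.618).

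Between the organs of a rat, 9 members could be compared, and 0 passed after adjustment. Bmal1 had the highest r, 0.80 (rho = 0.82, n = 12, exact permutation p = 0.0309, adjusted p = 0.264), and 0.73 without the 2 rats farthest from its median in liver. Dbp had r = 0.70 (rho = 0.57, exact permutation p = 0.0648, adjusted p = 0.264) and Nr1d2 r = 0.61 (rho = 0.67, exact permutation p = 0.088, adjusted p = 0.264). Nr1d1 had r = −0.00 (rho = 0.37, exact permutation p = 0.997, adjusted p = 0.997).

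The balance of Nr1d1 and Bmal1 in a rat was described by their log2 difference, which is not a measure of phase. Its zero has no meaning, since probe sets differ in brightness, and only its comparison between rats is used. Nr1d1 minus Bmal1 ran from 0.53 to 2.48 in spleens of drug rats and from −1.10 to 0.72 in those of vehicle rats. Only drug rat 2005, whose spleen array had many blanks, lay below the highest vehicle rat. In livers it overlapped widely, at −1.68 to 0.83 in drug rats and −1.60 to −0.28 in vehicle rats. Since Nr1d1 alone already separated the spleens, this difference is not independent of that gene.

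The genes whose deviations were most like those of a member were taken from genes at or above the median level with a value on all 12 arrays of the organ, 7086 in spleen and 6847 in liver. For Dbp in spleen the closest was Tef, its PAR bZIP relative (r = 0.96), followed by Hpf1 (0.95) and Snx3 (0.92). For Nr1d1 in spleen they were Lims2 (0.96), Mprip (0.92) and Git1 (0.90), and in liver Rcn1 (0.93), Trappc6a (0.93) and Ptprk (0.90). For Bmal1, Wdr6 was among the closest 3 in both organs, with r = 0.91 in spleen and 0.92 in liver, after C9h6orf226 (0.92) and Rce1 (0.92) in spleen and Chd1l (0.95) and Tprn (0.93) in liver. For Dbp in liver they were Rnf25 (0.92), Hspa14 (0.91) and Poglut1 (0.91). These are the highest of all correlations computed for a member over 12 rats and are given as a description.

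Beyond the 10 members, 8 further transcription factors of the clock had a probe set, and in spleen 4 were higher and 3 lower with the drug (median 0.47), where 26.9% of all genes were higher and 28.1% lower. The PAR bZIP factors Hlf and Tef, which bind the D-boxes that Dbp binds, rose by 1.33 ± 0.12 (limma, adjusted p = 1.18e-05) and 0.91 ± 0.11 (adjusted p = 9.68e-05). Rora, which activates Bmal1 at the elements where the NR1D proteins repress it, rose by 1.31 ± 0.12 (adjusted p = 1.03e-05). Nfil3, the repressor at D-boxes, fell by 0.87 ± 0.18 (adjusted p = 0.00264). In liver 0 of 7 passed, where 0.812% of all genes did, with the largest values at Bhlhe41 (0.63) and Bhlhe40 (−0.55). Between the organs the drug effect differed for Hlf (1.45 ± 0.16, adjusted p = 2.3e-06) and Rora (1.51 ± 0.17, adjusted p = 4.35e-06), as it did for 4 of the 7 in all and for 33.1% of all genes.

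**Figure D5:**
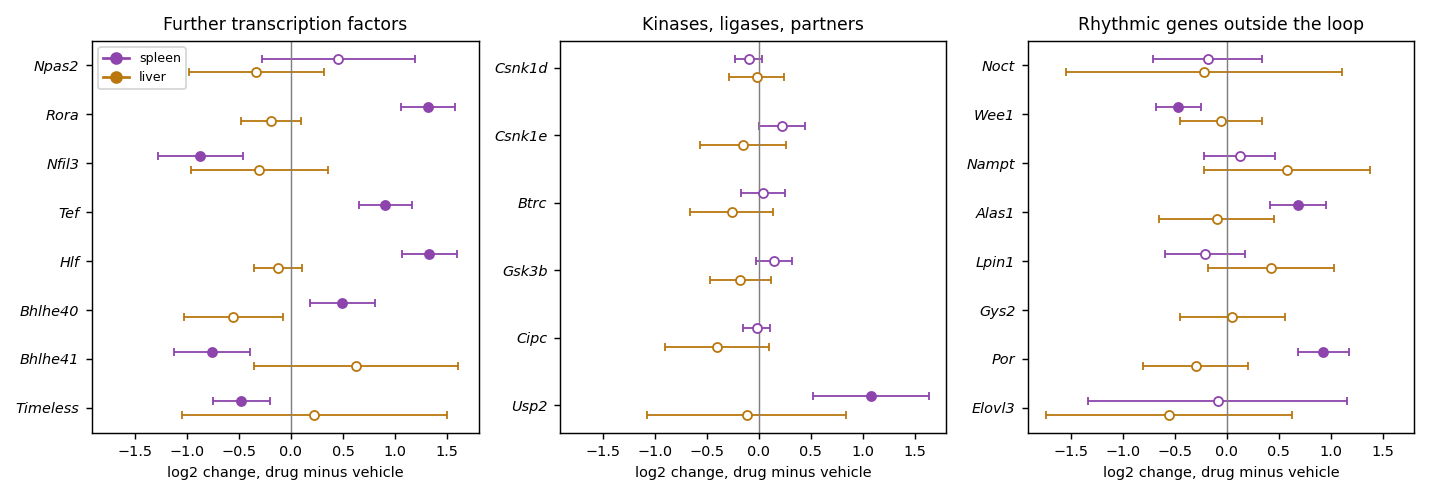
Log2 change, cyclophosphamide minus vehicle, of further clock factors, of proteins that act on clock proteins and of rhythmic genes outside the loop, in spleen (upper point) and liver (lower point), with 95% intervals; filled points passed an adjusted p of 0.05 in limma. In spleen 7 of 8 factors are filled on the left, 1 of 6 genes in the middle and 3 of 7 on the right, where 55% of all spleen genes passed, and in liver none is, where 0.812% passed; the lists were not tested against each other.

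Of 6 kinases, ligases and partners of clock proteins, 1 was higher and 0 lower in spleen (median 0.09), a smaller share than the 55% of all genes that passed: the deubiquitinase Usp2 rose by 1.07 ± 0.25 (limma, adjusted p = 0.00458). Of 7 rhythmic genes outside the loop, 2 were higher and 1 lower (median −0.09), also under that share. Por, the electron donor of cytochromes P450, rose by 0.93 ± 0.11 (adjusted p = 6.82e-05), and Alas1, the housekeeping first enzyme of haem synthesis, rose by 0.68 ± 0.12 (adjusted p = 0.00086). Wee1, the kinase that holds back mitosis, fell by 0.47 ± 0.10 (adjusted p = 0.00249). In liver 0 of 6 and 0 of 8 passed, where 0.812% of all genes did, with the largest values at Cipc (−0.40) and Btrc (−0.26), and at Nampt (0.58) and Elovl3 (−0.56).

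Genes that answer glucocorticoids and fasting, both known to act on clock genes in rodents, were counted beside the members, and in spleen both counts were near the 55% of all genes that passed. Of 6 glucocorticoid-responsive genes tested in spleen, 3 were higher and 0 lower (median 0.60): Errfi1 rose by 1.81 ± 0.38 (limma, adjusted p = 0.00271), Sgk1 by 0.98 ± 0.14 (adjusted p = 0.000193) and Klf9 by 0.81 ± 0.13 (adjusted p = 0.000553). Of 7 genes known from the fasting liver, 3 were higher and 1 lower in spleen (median 0.32), with Pdk4 at 1.46 ± 0.29 (adjusted p = 0.0018), Angptl4 at 1.12 ± 0.09 (adjusted p = 7.56e-06), Ppargc1a at 0.43 ± 0.15 (adjusted p = 0.0402) and Pck1 at −0.68 ± 0.26 (adjusted p = 0.0486). In liver 0 of 7 passed in each list, where 0.812% of all genes did, with the largest values at Fkbp5 (0.46) and Dusp1 (−0.45), and at Fgf21 (−2.61, adjusted p = 0.0908) and Angptl4 (−1.08). Their part in the clock result was not tested.

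The RNA of cell type markers in the spleens moved with the drug as well. The summed intensity of 5 B cell markers was 1438 to 2332 in drug rats and 12663 to 16560 in vehicle rats, and that of 7 red cell precursor markers was 125 to 372 in drug rats and 7681 to 16529 in vehicle rats. All 5 tested B cell markers and all 6 tested precursor markers were lower past the threshold. Of all genes tested in spleen, 28.1% were lower and 26.9% higher, the shares to set beside the spleen counts here. The sums of 8 macrophage markers (34545 to 38810 in drug rats, 17087 to 21038 in vehicle rats), 8 stroma markers (8557 to 10607 in drug rats, 3510 to 4463 in vehicle rats) and 7 endothelial markers (6730 to 7740 in drug rats, 4035 to 4594 in vehicle rats) were higher, with 8, 7 and 7 markers past the threshold. Of 8 T cell markers 1 was higher and 3 lower, with sums of 5128 to 8076 in drug rats and 6840 to 8490 in vehicle rats. In livers the hepatocyte sums overlapped, and 0 of 8 hepatocyte markers passed. The liver sums of the macrophage markers (2063 to 3359 in drug rats, 4028 to 4949 in vehicle rats) and of the red cell precursor markers (73 to 224 in drug rats, 328 to 532 in vehicle rats) were lower without overlap, with 3 of 8 and 1 of 5 tested markers past the threshold, all lower, where 0.812% of all liver genes passed. The liver sums of the B cell, T cell, stroma, endothelial and pancreas markers overlapped, and 0 markers of these lists passed there. The part of these shifts in the clock result was not tested. The exocrine pancreas markers summed to 557 to 16948 in spleens of drug rats and 350 to 1068 in those of vehicle rats, with the highest sum in rat 2003, and the members past the threshold in spleen numbered 7 without that rat.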

How the data were processed

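Liver and spleen RNA of 12 rats was measured on 24 arrays. The authors deposited log10 intensities of 30980 probe sets; the base was inferred from their span (2143-fold read as log10, 10.1-fold read as log2), and the probe summary and scaling are not given in the sources used here. They were converted to log2; blanks, 77831 of 743520 cells (10.5%), stayed missing. Of the probe sets 20792 name 1 gene, 436 several and 9752 none. The members, lists and tests were chosen with earlier results of these data known. Lists held 8 or 10 genes; of each, up to 4 genes past the threshold with the largest change were named, and otherwise 2 as values.

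R 4.3.3 with limma 3.58.1 fitted 4 group means per organ, or 8 over both, with eBayes; genes with at least 1 value in each group were tested, Benjamini-Hochberg ran over all genes of a contrast, and the threshold was 0.05. The fit was tested on simulated data. Every group has 3 rats, and their number limits the precision. No 2 arrays were identical. Correlations across rats used Python 3.11.15 with exact permutation within groups.

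Organs of a rat share its number in the labels, which gives the pairing; over 10530 genes the correlation of liver and spleen deviations of a rat was −0.06 to 0.17, below 0 only in rat 2001. Listed genes without a probe set naming them alone were not analysed here. Alternatives covered normalization, offsets with blanks at 0, filters, probe set choice, the variance prior, array weights, each rat left out, the spleen arrays with over 1500 blanks, and the rat as a block.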

Additional observations from a re-analysis of the deposited data

Results flagged for a closer look

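Between the organs, 4 clock genes had drug effects that differed by the interaction of drug and organ in limma. The spleen minus liver difference was 1.13 for Nr1d2, 0.97 for Nr1d1, 0.68 for Clock and −0.79 for Cry1. For Nr1d2 and Clock the liver change itself was −0.01 and −0.02. In the same fit 33.1% of all genes differed. The cell type markers of the spleen moved with the drug in the same arrays, and their part in these differences was not tested.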

How the results depend on the processing

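In spleen the 7 members past the threshold for the drug were 7 with each rat left out (lowest and highest 7), and 6 with a term for the arrays with many blanks or on the arrays with few blanks (rats with wood), where Per2 lost its call (0.74 and 0.46). Among genes at or above the median level it was 5, as Per3 and Cry1 fall outside them. In liver 0 members passed for the drug in any setting. For wood in spleen the count was 1, and 1 without each rat. It was 2 by quantile normalization, 2 by median centring, 2 with an offset of 16, 2 among genes at or above the median level, 3 with an offset of 64, 3 with trend and robust, and 0 with the term for arrays with many blanks. The additions were Dbp and Nr1d2, on the same side as before. The 4 members whose drug effect differed between organs were 7 with an offset of 16, 7 with an offset of 64, 6 with array weights (with Per2 and Dbp), and 4 to 5 with each rat left out (5 without 4001, where Dbp passed). With the rat as a replicate block, the pairing given by the labels, 4 passed as a random and 5 as a fixed block; it changed no other call among the members. Over all settings 1459 member values were compared: 1439 kept their status, called or not called, 4 lost a call, 16 gained one and 0 called values reversed. Among the values not called, 102 changed sign. The causes were not tested. The share of all genes called in each setting is not given here, so a higher count cannot be read as particular to the members. With an offset, blanks at 0 made Per3 testable in liver. Dim signal limits Per1 in spleen, and a wide spread between rats limits Per1 and Per2 in liver, where the chosen probe set of Per3 was blank.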
